A study of Mus musculus with 12 samples.

Results

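The Fc receptors described here are 6 genes: Fcgr1, Fcgr3 and Fcgr4, which encode activating receptors for IgG, Fcer1g, their shared signalling chain, Fcgr2b, the inhibitory IgG receptor, and Fcgrt, the heavy chain of the neonatal Fc receptor FcRn. They were chosen by symbol among the 25919 genes of the count table, all 6 were found, and all 6 passed the filter on low counts that left 9852 genes for testing. Bulk RNA from mouse liver samples (strain C57BL/6, 7 weeks old) was sequenced from the 3′ end. Libraries with the cell type label CD40 at day 2 (n = 4) are set against libraries labelled Kupffer cells at day 0 (n = 2), so that label and day differ together. The labels name no treatment, no genetic change, no sorting gate and no event from which days are counted, and they do not say whether libraries came from separate animals, so p-values reflect library-to-library spread, part of which may be technical. The series also holds Kupffer cells at day 7 (2 libraries) and Ly6C CD40-negative samples at day 2 (4), whose columns could not be tied to the gene names with enough certainty and were left aside. Letters a to d name a group's libraries by their place in the table and pair nothing. The transcript of the labelled protein, Cd40, was at 382, 375, 339.6 and 225 counts per 1000000 (CPM, scaled by TMM) in CD40 day 2 a to d, against 20.1 and 18.1 CPM in Kupffer day 0. The Kupffer cell marker Clec4f averaged 17.2 ± 3.61 CPM in CD40 day 2 (SD, n = 4) and 1073 ± 74.3 CPM in Kupffer day 0 (SD, n = 2). Of the 13 Kupffer cell markers listed, 10 were called lower in CD40 day 2 and 2 higher, against 30.2% and 23.2% of all genes tested. In the Kupffer day 0 libraries endothelial markers took 2.67% and 2.84% of counts, more than Kupffer cell markers (0.527% and 0.448%).

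Fc receptors bind the constant part of antibodies and so connect antibody to phagocytes. The activating receptors have no signalling motif of their own and pair with the Fcer1g chain, whose immunoreceptor tyrosine-based activation motif (ITAM) recruits the kinase Syk after Src-family kinases have phosphorylated it. The inhibitory receptor carries the opposite motif (ITIM), which recruits the phosphatase SHIP-1, product of Inpp5d. In the mouse liver, sinusoidal endothelial cells are known for high levels of the inhibitory receptor and clear small immune complexes, while Kupffer cells, the resident macrophages, take up larger opsonised particles. FcRn works inside cells, where it returns IgG and albumin from endosomes to the blood.

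The 6 genes did not all go in the same direction. In CD40 day 2 libraries the 3 activating IgG receptors and their signalling chain were higher than in Kupffer day 0 libraries, by 2.96-fold (Fcgr3) to 6.32-fold (Fcgr1), while Fcgr2b was 6.30-fold lower and Fcgrt 17.2-fold lower. All 4 rises and both falls passed edgeR's quasi-likelihood test at an adjusted p of 0.05. Of all genes tested, 53.4% passed it, 23.2% higher and 30.2% lower, so that a call alone does not set these genes apart. For 5 of the 6 genes every CD40 day 2 library lay on the same side of both Kupffer day 0 libraries, which held for 66.6% of all genes tested. In bulk samples fewer cells of a type and less RNA per cell cannot be told apart.

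The regions around listed starts of the genes are shown because PU.1, the product of Spi1, and interferon-gamma are known to act on Fc receptor genes, and the Spi1 transcript differed between the groups. The RefSeq promoter table (build GRCm38.p6) covers 250 bases before to 50 bases after each start and held all 6 genes. These starts can differ from those of the GENCODE annotation, which gives the gene spans below. The Fcgr3 and Fcgr2b windows lie wholly inside those spans (171051174 to 171064935 and 170958617 to 170976547), so they are not upstream of the whole gene. Each window was searched on both strands for the interferon-gamma activated site TTCNNNGAA, for a pair of interferon-response repeats (GAAA and, after 2 free bases, GAAA) and for the PU.1 core GAGGAA, and matches are in capitals, a match on the other strand reading as its reverse complement. The strand of each window is given with its coordinates, and sequences read 5′ to 3′ along the strand of the gene.
Fcgr1, chr3:96293920-96294219, minus strand: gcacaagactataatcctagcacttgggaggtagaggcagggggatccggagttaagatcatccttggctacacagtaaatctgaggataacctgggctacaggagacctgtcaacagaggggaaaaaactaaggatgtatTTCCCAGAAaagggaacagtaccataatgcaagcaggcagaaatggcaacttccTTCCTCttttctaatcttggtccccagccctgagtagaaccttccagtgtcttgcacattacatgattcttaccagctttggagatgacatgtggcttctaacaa
Fcgr4, chr1:171018676-171018975, plus strand: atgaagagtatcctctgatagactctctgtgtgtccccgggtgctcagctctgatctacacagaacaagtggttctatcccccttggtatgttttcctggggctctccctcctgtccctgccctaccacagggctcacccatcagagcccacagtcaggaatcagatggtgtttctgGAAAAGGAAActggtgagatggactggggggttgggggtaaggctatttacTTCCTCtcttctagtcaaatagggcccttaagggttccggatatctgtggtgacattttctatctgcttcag
Fcgr3, chr1:171059354-171059653, minus strand: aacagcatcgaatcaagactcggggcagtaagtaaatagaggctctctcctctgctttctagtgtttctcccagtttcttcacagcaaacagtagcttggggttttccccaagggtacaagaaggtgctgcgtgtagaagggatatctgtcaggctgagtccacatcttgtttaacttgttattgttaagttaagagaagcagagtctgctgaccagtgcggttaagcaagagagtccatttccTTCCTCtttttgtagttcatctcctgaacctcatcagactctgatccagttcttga
Fcgr2b, chr1:170976022-170976321, minus strand: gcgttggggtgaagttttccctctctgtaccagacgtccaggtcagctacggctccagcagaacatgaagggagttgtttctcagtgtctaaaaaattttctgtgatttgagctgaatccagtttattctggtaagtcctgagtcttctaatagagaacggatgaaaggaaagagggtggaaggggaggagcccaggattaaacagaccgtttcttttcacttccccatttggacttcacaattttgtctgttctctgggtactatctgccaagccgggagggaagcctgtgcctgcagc
The Fcgr1 window held 1 TTCNNNGAA match, 109 to 101 bases before the start, and a PU.1 core 55 to 50 bases before it. The Fcgr4 window held the GAAA pair 73 to 64 bases before the start and a PU.1 core at 22 to 17, and the Fcgr3 window held a PU.1 core at 6 to 1 (15 to 10 from its second listed start, whose window overlaps the one shown). No match overlapped another. The windows of Fcgr2b, Fcer1g and Fcgrt held none of these letters. Among 32851 mouse windows of the same length, 8.30% held TTCNNNGAA, 3.44% held the GAAA pair and 28.3% held the PU.1 core. A match describes the letters only, and no match says nothing of the factor.

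Fcgr1, the high-affinity IgG receptor, stood at 290.4, 202, 333 and 388 CPM in CD40 day 2 libraries a to d, against 55.1 and 39.0 CPM in Kupffer day 0 a and b. Every CD40 day 2 library was above both Kupffer day 0 libraries, although the Kupffer day 0 values rest on few counts, 96 and 28. The means were 304 ± 78.5 CPM in CD40 day 2 (SD, n = 4) and 47.1 ± 11.4 CPM in Kupffer day 0 (SD, n = 2), a log2 fold change of 2.66 ± 0.30 (SE; edgeR adjusted p = 5.92e-05). The gene (ENSMUSG00000015947.10) lies on the minus strand of chromosome 3 (GRCm38), 96282909 to 96293969, apart from the other Fc gamma receptor genes.

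Fcgr4, an activating receptor of intermediate affinity that mouse monocytes, macrophages and neutrophils carry, was at 307, 163, 425 and 470.0 CPM in CD40 day 2 a to d and at 94.2 and 93.3 CPM in Kupffer day 0. The groups did not overlap, and the lowest CD40 day 2 value, that of library b, was still above both Kupffer day 0 values. Means were 341 ± 137 CPM in CD40 day 2 (SD, n = 4) and 93.7 ± 0.601 CPM in Kupffer day 0 (SD, n = 2), with a log2 fold change of 1.87 ± 0.38 (SE; edgeR adjusted p = 0.00236).

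Fcgr3, the low-affinity activating receptor that NK cells carry too, varied most among the CD40 day 2 libraries, with 619.8, 218, 845 and 953 CPM in a to d, against 226 and 221 CPM in Kupffer day 0. Libraries a, c and d were above the Kupffer day 0 pair, while library b was below both of its members, so the groups overlap. The means were 659 ± 325 CPM in CD40 day 2 (SD, n = 4) and 224 ± 2.97 CPM in Kupffer day 0 (SD, n = 2; log2 fold change 1.57 ± 0.48 SE, edgeR adjusted p = 0.0193). This was the weakest call of the 6: it was lost without Kupffer day 0 a (adjusted p = 0.127) and without Kupffer day 0 b (adjusted p = 0.108), where 1 library is assumed to vary like the other group (range over all alternatives 1.77e-11 to 0.127). Without CD40 day 2 b the log2 fold change was 1.92 ± 0.21 (SE; edgeR adjusted p = 2.07e-05).

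Fcer1g, the ITAM-bearing chain that the 3 activating receptors need to reach the surface, was at 6935, 4913, 7091 and 7485 CPM in CD40 day 2 a to d and at 1217 and 1368 CPM in Kupffer day 0. Again all CD40 day 2 libraries were higher, with b the lowest, and the spread was the narrowest of the 6 genes in that group (coefficient of variation 17.4%, against 25.9% to 49.3% for the others). Means were 6606 ± 1152 CPM in CD40 day 2 (SD, n = 4) and 1292 ± 107 CPM in Kupffer day 0 (SD, n = 2), a log2 fold change of 2.35 ± 0.22 (SE; edgeR adjusted p = 2.06e-05).

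Fcgr2b, the inhibitory receptor, was at 362, 159.9, 365 and 465 CPM in CD40 day 2 a to d, against 2281 and 2005 CPM in Kupffer day 0. The Kupffer day 0 values were both above every CD40 day 2 value, and library b was the lowest of the CD40 day 2 libraries here as well. Means were 338 ± 128 CPM in CD40 day 2 (SD, n = 4) and 2143 ± 194 CPM in Kupffer day 0 (SD, n = 2; log2 fold change -2.65 ± 0.31 SE, edgeR adjusted p = 8.12e-05).

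Fcgrt had the largest difference of the 6, with 130.2, 182, 109 and 92.9 CPM in CD40 day 2 a to d, against 2207 and 2146 CPM in Kupffer day 0. The groups were far apart, and in CD40 day 2 the order of libraries was the reverse of that of the other 5 genes at its ends, with b the highest and d the lowest. Means were 129 ± 39.0 CPM in CD40 day 2 (SD, n = 4) and 2177 ± 43.0 CPM in Kupffer day 0 (SD, n = 2), a log2 fold change of -4.10 ± 0.24 (SE; edgeR adjusted p = 1.26e-06). The gene (ENSMUSG00000003420.8) lies on the minus strand of chromosome 7, 45092990 to 45103851.

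**Figure D1:**
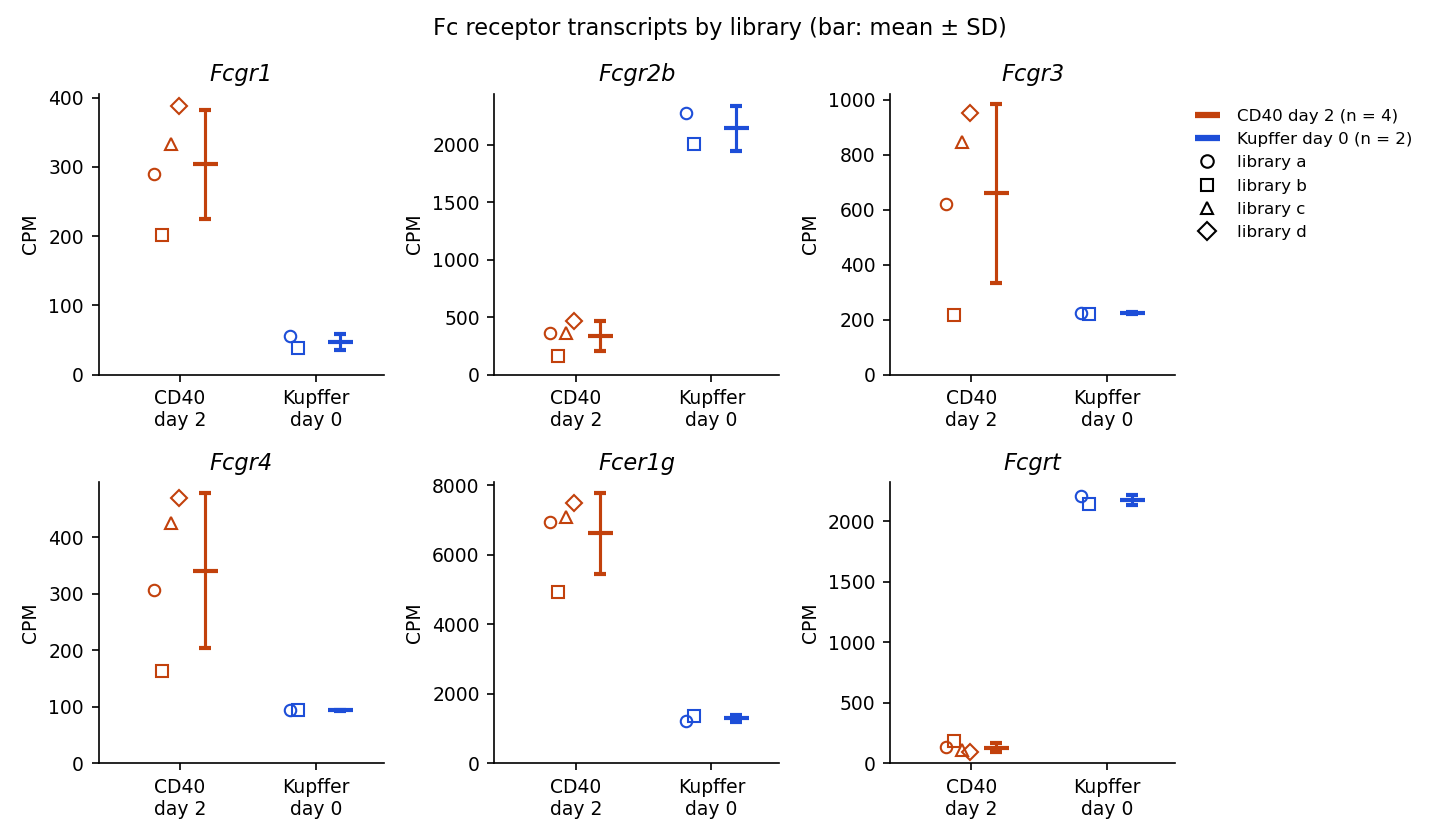
Levels of the 6 Fc receptor transcripts in CPM (vertical axes from 0, a separate scale per gene) in CD40 day 2 libraries (left in each panel, n = 4) and Kupffer day 0 libraries (right, n = 2), with 1 symbol per library and a bar for mean ± SD. Fcgr1, Fcgr4 and Fcer1g are higher in every CD40 day 2 library, Fcgr2b and Fcgrt lower in every one, and for Fcgr3 library b (218 CPM) lies beside the Kupffer day 0 values.

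Within CD40 day 2, most of the 6 genes ranked the same libraries at their ends. Library b was the lowest for the 5 genes other than Fcgrt and library d the highest for the same 5. Library b stood at 0.270 times the mean of a, c and d for Fcgr3, 0.402 for Fcgr2b, 0.406 for Fcgr4, 0.600 for Fcgr1 and 0.685 for Fcer1g, and at 1.65 times for Fcgrt. Library b also held the lowest share of classical monocyte markers (1.30% of its counts, against 1.62% to 1.77% in a, c and d) and the highest share of conventional dendritic cell markers (0.100%, against 0.0616% to 0.0699%), and it was the shallowest of the 4 (725683 counts). The part of these differences in the lower receptor levels of library b was not tested.

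Direction and size held across the processing alternatives for the 6 genes, apart from the Fcgr3 calls above. Over 11 alternatives the log2 fold change was 2.47 to 2.96 for Fcgr1, 2.19 to 2.54 for Fcer1g, 1.68 to 2.16 for Fcgr4 and 1.33 to 1.92 for Fcgr3. It was -2.85 to -2.36 for Fcgr2b and -4.26 to -3.97 for Fcgrt. The median log2 fold change of all genes tested was -0.10 with TMM scaling and -0.27 with library totals alone, a shift smaller than any of these changes.

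**Figure D2:**
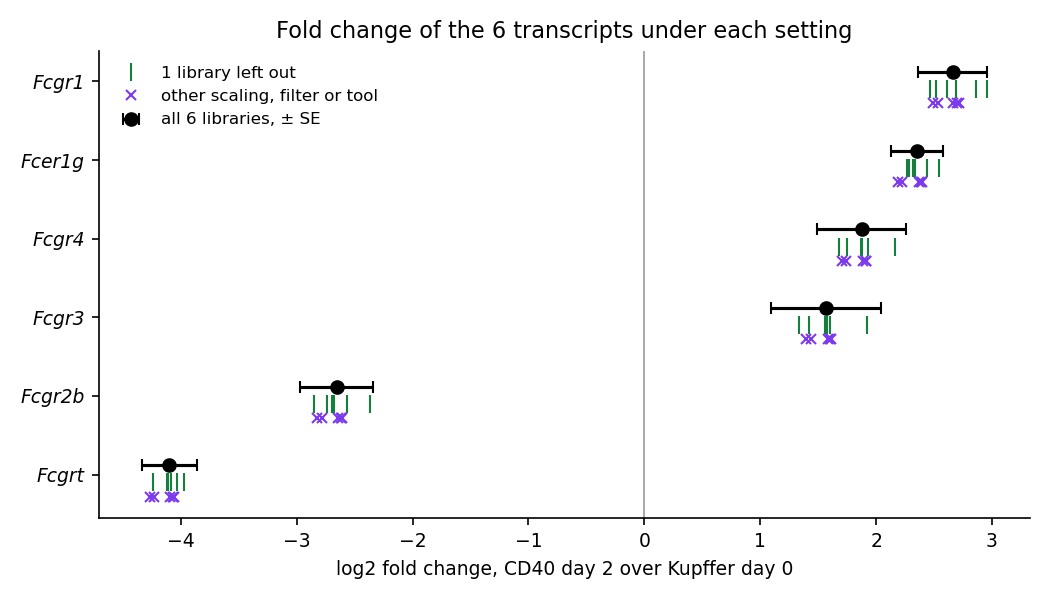
Log2 fold change of each Fc receptor gene, CD40 day 2 over Kupffer day 0, with all 6 libraries (black, ± SE), with 1 library left out (green ticks) and with another scaling, filter or tool (violet crosses). The 4 activating genes stay between 1.33 and 2.96 and the other 2 between -4.26 and -2.36.

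Ratios of counts within a library need no scaling between libraries and were therefore compared as well. They are ratios of 3′ counts, so the change between groups can be read but not the number of molecules of one receptor per molecule of another. In bulk samples the receptors compared in a ratio may also come from different cells. Endothelial markers took 2.67% and 2.84% of counts in Kupffer day 0 and 0.0516% to 0.115% in CD40 day 2. The part of cell content in the ratios was not tested. Summed counts of the activating receptors Fcgr1, Fcgr3 and Fcgr4 over those of Fcgr2b were 3.36, 3.65, 4.40 and 3.89 in CD40 day 2 a to d, against 0.164 and 0.176 in Kupffer day 0. The ratio was 22.4 times higher in CD40 day 2 (mean 3.82 ± 0.440 SD, n = 4) than in Kupffer day 0 (mean 0.170 ± 0.00848 SD, n = 2), with no overlap, and library b did not stand apart. Taken singly, the mean ratio to Fcgr2b was 43.7 times higher in CD40 day 2 for Fcgr1, 23.0 times for Fcgr4 and 17.8 times for Fcgr3. The ratio of Fcer1g to the 3 activating receptors was 5.70, 8.43, 4.42 and 4.13 in CD40 day 2 a to d and 3.25 and 3.87 in Kupffer day 0. These ratios were given no p-value, because they are scores over genes chosen together.

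**Figure D3:**
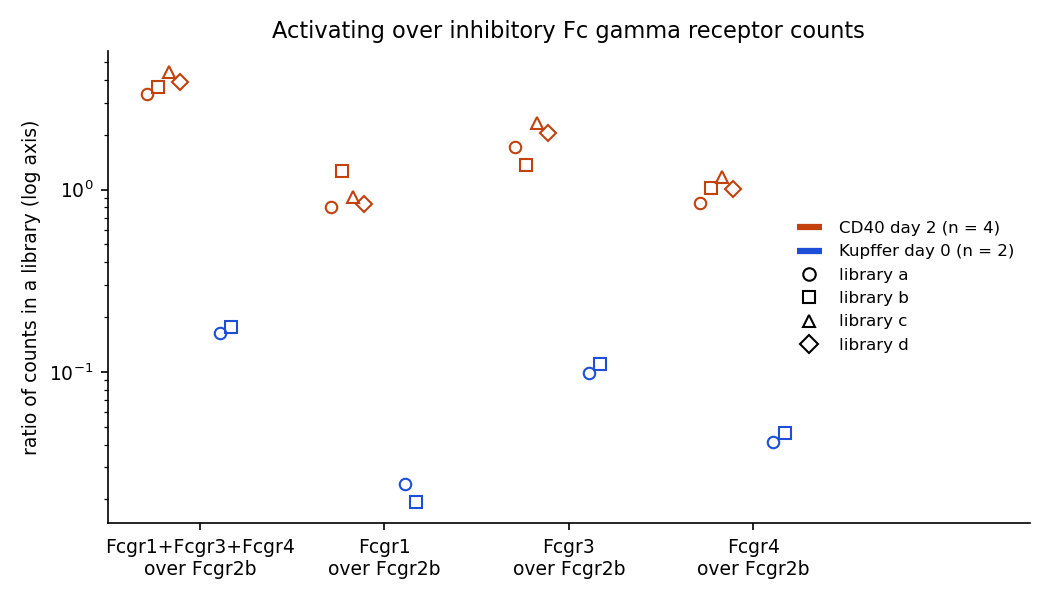
Ratio of counts of activating Fc gamma receptors to counts of the inhibitory Fcgr2b within each library (log axis), CD40 day 2 (orange, n = 4) left of Kupffer day 0 (blue, n = 2) for each ratio. For the summed receptors the 4 CD40 day 2 libraries lie between 3.36 and 4.40 and the Kupffer day 0 libraries at 0.164 and 0.176.

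Except for Fcgr1 and Fcgrt, the genes share a stretch of chromosome 1. Fcgr2b (ENSMUSG00000026656.15, 170958617 to 170976547, minus strand), Fcgr4 (ENSMUSG00000059089.4, 171018920 to 171029761, plus strand), Fcgr3 (ENSMUSG00000059498.13, 171051174 to 171064935, minus strand) and Fcer1g (ENSMUSG00000058715.11, 171229572 to 171234365, minus strand) lie within 276 kb in that order. Fcgr2b fell while Fcgr4, the next of them, rose. Within this stretch 4 other genes were tested: Cfap126 and Sdhc were higher in CD40 day 2, Apoa2 was lower and Tomm40l did not pass the test. The calls of Cfap126 and Sdhc were close to the threshold (edgeR adjusted p = 0.0329 and 0.0340). Cfap126 was near the floor, at 5.92 ± 3.51 CPM in CD40 day 2 (SD, n = 4) and 0.983 ± 0.579 CPM in Kupffer day 0 (SD, n = 2). Apoa2, a listed hepatocyte marker, varied widely in Kupffer day 0 (183 ± 139 CPM). These calls were not followed through the alternatives. In the last 400 bases of their coding transcripts, none of the 6 genes shared a stretch of 50 bases with a transcript of another gene. The antisense genes Gm38204 and Gm45669 overlap the spans of Fcgr2b and Fcgrt, and neither is in the count table. No source used here says whether counting used strand. Gm38204 (170973373 to 170977746, plus strand) covers only the 5′ end of the Fcgr2b span, away from its 3′ end. Genes on the other strand also overlap some genes named by rule from the lists and as nearest profiles. These are Lat2, Ptpn6, Sla, Arpc1b, B2m, Jak1, Aprt, Acp2, Kcnab2, F13a1, Lhfp and Itga8. Overlap was judged from whole gene spans. Whether it reaches the sequenced 3′ ends of Fcgrt and these other genes was not examined.

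Other receptors for antibody were scarce. Of 13 listed, 12 were in the table and 4 had enough counts to test. Of these 4, 0 were higher and 2 lower in CD40 day 2, against 23.2% and 30.2% of all genes tested. Their median log2 fold change was -0.79, against -0.10 for all genes tested. Pigr, which carries IgA and IgM across epithelia, was at 1.30 ± 0.511 CPM in CD40 day 2 (SD, n = 4) and 46.9 ± 4.60 CPM in Kupffer day 0 (SD, n = 2; log2 fold change -5.13 ± 0.37 SE, edgeR adjusted p = 3.88e-06). Fcrla, an intracellular Fc receptor-like protein of B cells, was lower (edgeR adjusted p = 0.0141), a call lost without either Kupffer day 0 library and with DESeq2 (adjusted p = 0.0534; range over the alternatives 0.00234 to 0.131). The alpha and beta chains of the high-affinity IgE receptor, Fcer1a and Ms4a2, which use the same Fcer1g chain, had 1 count each over the 4 CD40 day 2 libraries and 0 in the Kupffer day 0 libraries. Fcrl5, an Fc receptor-like protein of B cells, had 22 counts over CD40 day 2 and 0 over Kupffer day 0 and did not pass the filter on low counts (named after its counts were seen). It was called higher in both settings that kept it, edgeR with no filter beyond 1 count (adjusted p = 0.0050) and DESeq2 (adjusted p = 0.0313), so that 1 gene of the list was higher there.

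Other signalling adaptors and receptors that couple to Fcer1g were higher in 6 of 8 tested cases and lower in 0 (median log2 fold change 1.97). Among all genes tested, 23.2% were higher and 30.2% lower. Tyrobp, the other ITAM adaptor of myeloid cells (DAP12), was at 4744 ± 516 CPM in CD40 day 2 (SD, n = 4) and 1218 ± 227 CPM in Kupffer day 0 (SD, n = 2; log2 fold change 1.96 ± 0.20 SE, edgeR adjusted p = 3.03e-05). Clec4e, the glycolipid receptor Mincle, was at 558 ± 238 CPM in CD40 day 2 and 31.3 ± 16.7 CPM in Kupffer day 0 (4.27 ± 0.56). Gp6, the collagen receptor of platelets, had 483 counts in CD40 day 2 and 3 in Kupffer day 0, a ratio of 69.7 with an exact 95% counting interval of 23.7 to 339, which covers counting error only. Clec4n (Dectin-2), Clec4d and Hcst were also called higher, but Hcst and Clec4d were not called without Kupffer day 0 a (adjusted p = 0.153 and 0.121).

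Kinases and adaptors that act after ITAM phosphorylation were higher in 13 of 21 tested cases and lower in 3 (median 1.71), against 23.2% and 30.2% of all genes tested. Prkcd, a protein kinase C, was at 747 ± 63.0 CPM in CD40 day 2 (SD, n = 4) and 81.3 ± 2.73 CPM in Kupffer day 0 (SD, n = 2; log2 fold change 3.20 ± 0.19 SE, edgeR adjusted p = 1.28e-06), and Lat2, a linker for these kinases, at 257 ± 9.07 CPM in CD40 day 2 and 12.4 ± 6.13 CPM in Kupffer day 0. Syk itself was at 75.7 ± 5.30 CPM in CD40 day 2 and 19.5 ± 0.0165 CPM in Kupffer day 0 (1.96 ± 0.21; edgeR adjusted p = 4.63e-05). The 3 that fell were Fyn, a Src-family kinase also of non-myeloid cells, Plcg1, a phospholipase C of many tissues, and Pik3r1, a regulatory subunit of phosphoinositide 3-kinase. Fgr and Plcg2, myeloid relatives of Fyn and Plcg1, were higher. Pik3r1 was not called without Kupffer day 0 a (adjusted p = 0.136).

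Phosphatases and adaptors of the inhibitory branch were higher in 6 of 13 tested cases and lower in 1 (median 0.58), while the inhibitory receptor itself fell. Calls in either direction were about as frequent here as among all genes tested (53.4%, with 23.2% higher and 30.2% lower). Ptpn6, the phosphatase SHP-1, was at 1010.4 ± 70.1 CPM in CD40 day 2 (SD, n = 4) and 113 ± 1.18 CPM in Kupffer day 0 (SD, n = 2; 3.16 ± 0.18 SE, edgeR adjusted p = 1.16e-06). Sla, an adaptor that limits receptor signalling, and Csk, the kinase that restrains Src-family members, were also higher (log2 fold changes 2.35 ± 0.24 and 1.56 ± 0.20). Inpp5d, whose product SHIP-1 binds the phosphorylated inhibitory receptor, was at 100.5 ± 14.8 CPM in CD40 day 2 and 66.8 ± 1.97 CPM in Kupffer day 0 (0.58 ± 0.20; edgeR adjusted p = 0.0322). That call was lost without either Kupffer day 0 library, without CD40 day 2 d, with library totals alone, with either other filter and with DESeq2 (adjusted p 0.0571 to 0.186 in these 7 settings). Without Kupffer day 0 a, 3 members of this list were higher and 1 lower. Inppl1, the related phosphatase SHIP-2, was the 1 that fell (-1.44 ± 0.33).

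Effectors of Fc receptor phagocytosis, which build the actin cup around a particle, were higher in 15 of 24 tested cases and lower in 4 (median 1.26; 14 and 1 without Kupffer day 0 a, 15 and 2 by DESeq2). The shares over all genes tested were 23.2% higher and 30.2% lower. Gsn, which severs actin filaments, was at 295 ± 18.9 CPM in CD40 day 2 (SD, n = 4) and 34.0 ± 9.07 CPM in Kupffer day 0 (SD, n = 2). Actr3, of the Arp2/3 complex that branches actin, was at 549.9 ± 9.19 CPM in CD40 day 2 and 122 ± 10.4 CPM in Kupffer day 0, and Arpc1b of the same complex at 2087 ± 51.8 CPM in CD40 day 2 and 571 ± 68.8 CPM in Kupffer day 0 (log2 fold changes 3.17 ± 0.22, 2.18 ± 0.16 and 1.87 ± 0.16 for Gsn, Actr3 and Arpc1b). Members that fell were Wasf2, Pld1, Limk1 and Crk, named after their values were seen, and of these only Crk was still called without Kupffer day 0 a.

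The partner and cargo of FcRn differed in direction from each other. B2m, the light chain that FcRn and MHC class I molecules share, was at 12645 ± 1189 CPM in CD40 day 2 (SD, n = 4) and 8093 ± 884 CPM in Kupffer day 0 (SD, n = 2), a log2 fold change of 0.64 ± 0.18 (SE; edgeR adjusted p = 0.0121), a call that did not hold without Kupffer day 0 a (adjusted p = 0.131, the highest of its alternatives, the lowest being 0.000773). Fcgrt fell while this partner did not. Alb, the hepatocyte product that FcRn recycles as albumin, was at 18.0 ± 9.36 CPM in CD40 day 2 and 148 ± 68.2 CPM in Kupffer day 0 (-3.06 ± 0.38).

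Among 10 transcription factors and cytokine signalling genes known to control Fc gamma receptor genes, 6 were higher and 1 lower in CD40 day 2 (median 0.92). Of all genes tested, 23.2% were higher and 30.2% lower. The call of Ifngr2, a chain of the interferon-gamma receptor (log2 fold change 0.45 ± 0.15 SE, edgeR adjusted p = 0.0311), was lost in 8 of 11 alternatives (adjusted p 0.0516 to 0.170 there): without CD40 day 2 a, c or d, without either Kupffer day 0 library, with library totals alone and with either other filter. Spi1, which encodes PU.1, was at 342 ± 20.6 CPM in CD40 day 2 (SD, n = 4) and 58.5 ± 3.95 CPM in Kupffer day 0 (SD, n = 2; log2 fold change 2.55 ± 0.18 SE, edgeR adjusted p = 3.27e-06). Jak1, a kinase of cytokine receptors, was the 1 that fell, with 229 ± 33.2 CPM in CD40 day 2 and 1039.7 ± 69.8 CPM in Kupffer day 0.

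**Figure D4:**
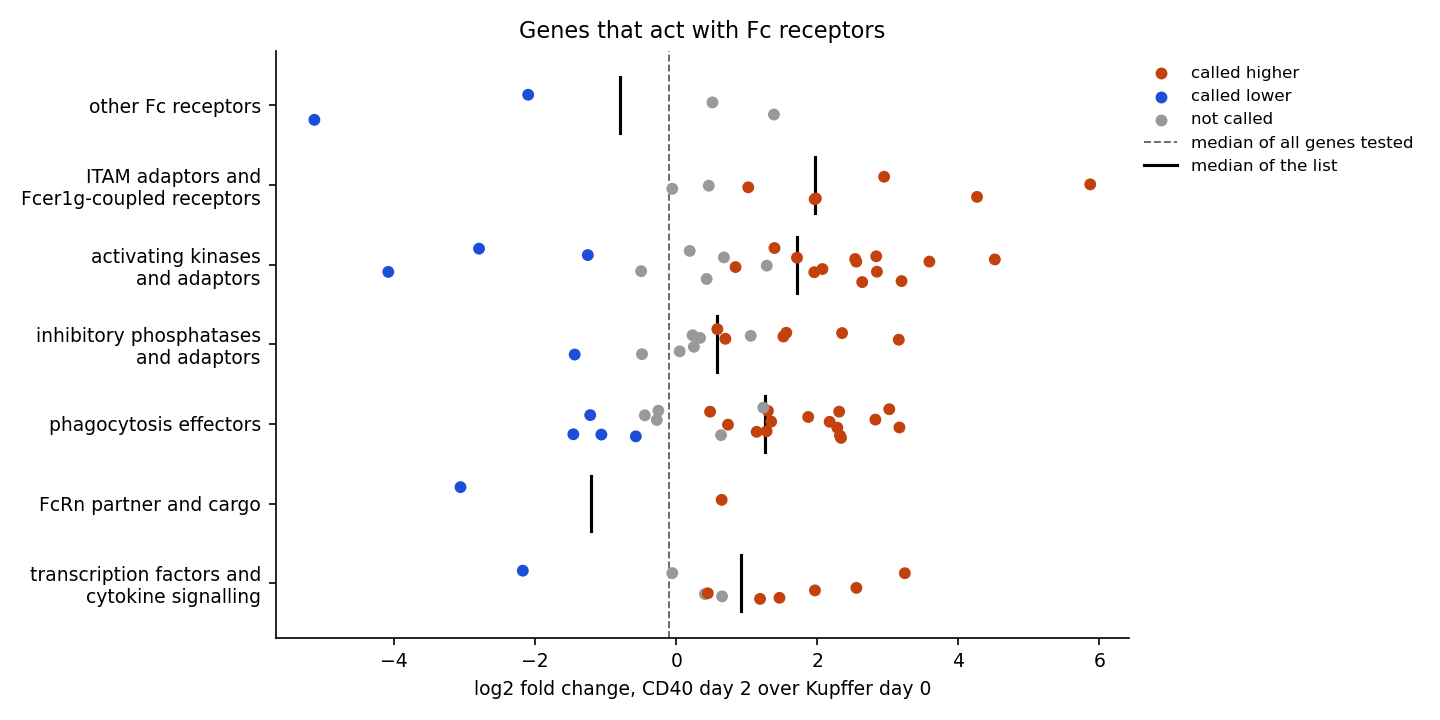
Log2 fold change, CD40 day 2 over Kupffer day 0, of each tested gene (points) in 7 lists of genes that act with Fc receptors, coloured by call in edgeR's test. Black bars are list medians, 1.97 for the list headed ITAM adaptors and Fcer1g-coupled receptors, which also holds the adaptor Hcst, and 0.58 for the inhibitory list. The dashed line is the median of all genes tested (-0.10).

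The profiles nearest to each receptor over the 6 libraries were found by the root mean square difference between centred log2 CPM values, among 5673 other genes with a mean of at least 20 CPM. Fcgr1 had Aprt, a purine salvage enzyme (difference 0.13), Rab32, a small GTPase (0.17), and Clec12a, an inhibitory lectin receptor (0.18). Fcgr4 had Aldh3b1, an aldehyde dehydrogenase (0.09), Cyp4v3, a fatty acid hydroxylase (0.10), and Acp2, a lysosomal phosphatase (0.13). Fcgr3 had F13a1, a coagulation factor subunit of monocytes (0.16), Cxcl2, a chemokine (0.19), and Slc11a1, a metal transporter of phagosomes (0.19). Nearest to Fcer1g were Lap3, an aminopeptidase (0.08), Kcnab2, a potassium channel subunit (0.11), and Pgk1, a glycolytic enzyme (0.11). Fcgr2b had Id1, an inhibitor of helix-loop-helix factors (0.08), Egr1, an immediate early factor (0.16), and Mef2c, a transcription factor (0.16). Fcgrt had Lhfp (0.14), Dmwd (0.18) and Itga8, an integrin chain (0.22). Lhfp, Dmwd and Itga8 were near the floor in CD40 day 2, with means of 2.38, 2.03 and 1.77 CPM. The count of 2 added before taking logs therefore affects their differences from Fcgrt. Some genes nearest to other members also had low values in single libraries. Mef2c and Id1 were at 4.24 and 8.49 CPM in CD40 day 2 b, and Kcnab2 was at 4.59 and 6.96 CPM in Kupffer day 0. The added count and counting error affect their differences as well. Among the 6 themselves the closest pairs were Fcgr1 with Fcer1g (0.26) and Fcgr3 with Fcgr4 (0.28), while Fcgr2b and Fcgrt were 0.99 apart.

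Markers of other cells differed between the groups along with these receptors. Of all genes tested, 23.2% were higher and 30.2% lower in CD40 day 2, shares to set beside the marker counts here and below. Endothelial markers took 0.0516% to 0.115% of counts in CD40 day 2, against 2.67% and 2.84% in Kupffer day 0, and 17 of 17 were lower, with none at 0. Kupffer cell markers, at 0.0626% to 0.0970% in CD40 day 2 and 0.527% and 0.448% in Kupffer day 0, were lower in 10 of 13 cases and higher in 2. Most of the CD40 day 2 share came from the 2 higher ones, Il18bp and Nr1h3. Il18bp was at 420 to 726 CPM in CD40 day 2 and at 175 and 171 CPM in Kupffer day 0. Nr1h3 was at 110 to 208 CPM in CD40 day 2 and at 101 and 65.5 CPM in Kupffer day 0. The endothelial and Kupffer lists fell beside Fcgr2b and Fcgrt, and their part in those falls was not tested. In both libraries labelled Kupffer cells the endothelial list took more counts than the Kupffer list. Stellate cell markers were lower in 8 of 8 tested cases and hepatocyte markers in 7 of 9, with 1 higher, Ass1, at 98.8 to 149 CPM in CD40 day 2 and 5.74 and 6.96 CPM in Kupffer day 0.

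Beside the 4 genes that rose, classical monocyte markers took 1.30% to 1.77% of counts in CD40 day 2, against 0.158% and 0.137% in Kupffer day 0, with 7 of 8 higher and none at 0. Non-classical monocyte markers were higher in 4 of 5 tested cases (0.0333% to 0.0592% in CD40 day 2, 0.0236% and 0.0261% in Kupffer day 0). Most of the share in both groups came from Nr4a1 and Itgal. Nr4a1 was at 187 to 357 CPM in CD40 day 2 and 129 and 178 CPM in Kupffer day 0. Itgal was at 90.5 to 195 CPM in CD40 day 2 and 70.0 and 61.3 CPM in Kupffer day 0. Dendritic cell markers were higher in 2 of 6 tested cases, with 1 lower (0.0616% to 0.100% in CD40 day 2, 0.0165% and 0.0209% in Kupffer day 0). Naaa, with 508 to 644 CPM in CD40 day 2 and 28.1 and 23.7 CPM in Kupffer day 0, made up most of that CD40 day 2 share, while Zbtb46 was at 5.36 to 45.3 CPM in CD40 day 2 and 88.4 and 98.9 CPM in Kupffer day 0. Neutrophil markers overlapped, at 0.0933% to 0.177% in CD40 day 2 and 0.0987% and 0.328% in Kupffer day 0, with 1 of 9 higher and 1 lower. NK and T cell markers (0.0251% to 0.0362%, against 0.0283% and 0.0263%) and B cell markers (0.00135% to 0.00234%, against 0.00149% and 0.00218%) had 0 calls among 5 and 1 tested. Mast cell and basophil markers were lower in 2 of 2 tested cases (0.000901% to 0.00220%, against 0.0250% and 0.0308% in Kupffer day 0). The Kupffer day 0 share was nearly all Kit (4.77 to 17.3 CPM in CD40 day 2, 193 and 259 CPM in Kupffer day 0) and Gata2 (0 to 1.41 CPM in CD40 day 2, 35.6 and 32.0 CPM in Kupffer day 0), genes that other cells also express. Cpa3 was at 0 counts in both groups, and Fcer1a and Ms4a2 were at 0 in Kupffer day 0. The part of monocyte and dendritic cell content in the rises was not tested.

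**Figure D5:**
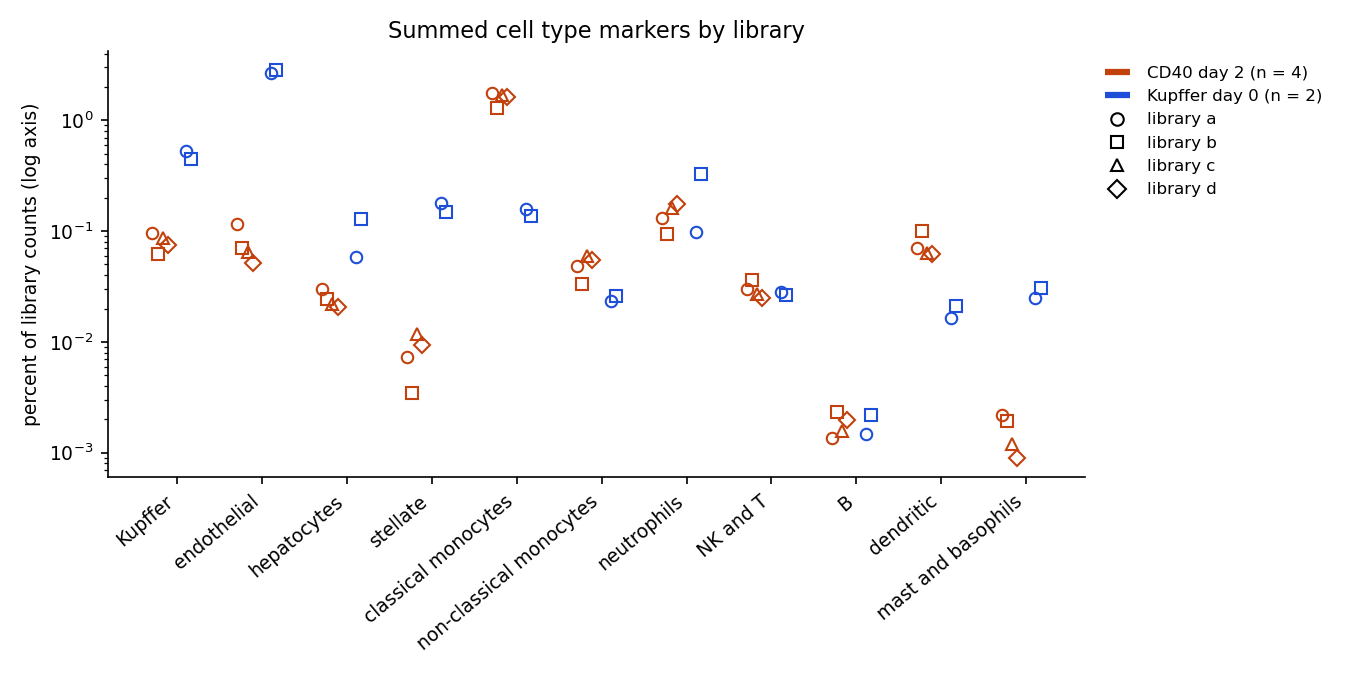
Summed markers of 11 cell types as a percent of library counts (log axis), CD40 day 2 (orange, n = 4) left of Kupffer day 0 (blue, n = 2) for each type. Endothelial markers lie at 0.0516% to 0.115% in CD40 day 2 and at 2.67% and 2.84% in Kupffer day 0, classical monocyte markers at 1.30% to 1.77% in CD40 day 2 and at 0.158% and 0.137% in Kupffer day 0, and neutrophil markers overlap.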

How the data were processed

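Whole-number counts per gene symbol were used as the authors deposited them (25919 rows, 12 columns). The submitters' processing notes name GRCm38.p6 and DESeq2 1.22.2. Per the labels' protocols, RNA was reverse transcribed with oligo-dT primers carrying barcodes and unique molecular identifiers, and the 3′ ends were sequenced. The aligner, the counting program and whether counts are of reads or identifiers were not given in the sources used here. Columns are named by group, without replicate numbers. Only 6 columns were read by gene: 4 headed CD40 day 2 (725683 to 2271228 counts) and 2 headed Kupffer cells day 0 (1612435 and 688498 counts). The other 6, also deposited, were left out because the rows follow the falling order of the first Kupffer day 0 column, and the first columns of the other groups left out are sorted likewise, as if apart from the gene names. No row named no gene, and 17 symbols had been turned into dates.

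Counts were tested with edgeR 4.0.16 in R 4.3.3 (quasi-likelihood test, TMM scaling, filterByExpr defaults, two-sided, no block, Benjamini-Hochberg adjustment over 9852 genes, threshold 0.05, common biological coefficient of variation 20.4%). No pair of libraries within a group agreed within sampling noise (chi-square over its degrees of freedom, 3.17 to 11.7). Alternatives were another scaling (RLE, library totals), another filter, DESeq2 1.42.0 and leaving out each library. Coordinates come from GENCODE vM21 (GRCm38) and promoters from RefSeq (GRCm38.p6). The members and lists were chosen with earlier results of these data known. Genes were named by rule: the 6 members, the 3 genes of lowest adjusted p per list, every tested gene of lists with at most 3, and the 3 nearest profiles per member, with exceptions stated. Genes named in the lists beyond this rule were chosen after their values were seen. Some genes that this rule picks are not reported here.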

Additional observations from a re-analysis of the deposited data

Results flagged for a closer look

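Library b of CD40 day 2 lay far from the other libraries of its group in the ratio of Fcgr4 to Fcgr3 counts, which was 0.747 there and 0.493 to 0.503 in a, c and d (0.417 and 0.421 in Kupffer day 0). It also lay apart in the ratio of Fcgr1 to Fcgr3 counts, 0.929 in library b and 0.394 to 0.468 in a, c and d (0.244 and 0.176 in Kupffer day 0). Both ratios share Fcgr3, which had 154 counts in library b. They were found by Dixon's gap test on 62 values over the 4 CD40 day 2 libraries, of which 2 were singled out, and chance alone singles out about 1 group in 20.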

How the results depend on the processing

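Of 66 combinations of the 6 genes with 11 alternatives, 64 kept their direction and their side of the threshold. The other 2 were Fcgr3 without Kupffer day 0 a (log2 fold change 1.58) and without Kupffer day 0 b (1.56), and over all libraries left out in turn Fcgr3 ran from 1.33 to 1.92. The number of genes called was 5262 and ran from 3206 (without Kupffer day 0 a) to 5514 (without CD40 day 2 b) when 1 library was left out, and leaving out a Kupffer day 0 library leaves a group of 1. Calls were 2288 higher and 2974 lower with TMM, and 1883 and 3361 with library totals alone. No paired analysis was possible because the columns carry no replicate numbers. With 28 counts of Fcgr1 and 67 of Fcgr4 in Kupffer day 0 b, depth limits the precision of both levels there.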

Other observations

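Gp6, listed among the receptors that couple to Fcer1g, was present in every CD40 day 2 library (67.4, 43.9, 123 and 63.7 CPM in a to d, against 1.15 and 1.39 CPM in Kupffer day 0), although it is known as a gene of platelets. Of the platelet genes looked up after this was seen, Pf4 had 0 counts in all 6 libraries, Itga2b had 13 counts over CD40 day 2 and 27 over Kupffer day 0, Gp9 had 10 and 7, and Gp1bb had 1 and 0.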
